A study of Mus musculus with 13 samples.

Results

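The genes described are 8 keratins and 2 of their companions in the epithelium, taken by symbol from the deposited tables: Krt7, Krt8, Krt18, Krt19, Krt5, Krt14, Krt15, Krt17, Trp63 and Sfn. All 10 were found among the 20270 genes of the count and TPM tables, and all 10 passed the filter on low counts, which kept 15315 genes. The members were listed by name, with earlier results of these data known. Krt7, Krt8, Krt18 and Krt19 are keratins of simple epithelia, and Krt8 is the marker that gave its name to a transitional state of alveolar cells. Krt5, Krt14, Krt15 and Krt17 are keratins of basal cells of the airways and of other stratified epithelia, Trp63 encodes p63, the transcription factor of basal cells, and Sfn encodes 14-3-3 sigma, an adaptor protein of epithelial cells that p53 induces.

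Keratins form filaments only as pairs of a type I and a type II chain. Krt8 pairs with Krt18 and Krt7 with Krt19 in simple epithelia, whereas Krt5 pairs with Krt14 or Krt15 in basal cells. After lung injury, type II cells that are on the way to becoming type I cells pass through a state with high Krt8, and basal cells with Krt5 and Trp63 can spread from the airways into injured alveoli.

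RNA of the lower right lung lobe was sequenced from 13 mice in 3 groups. The Control group held 4 wildtype mice without bleomycin (replicates 3, 21, 24 and 26). By the study's methods, control groups received the vehicle, sterile saline. The WT bleomycin group held 5 wildtype mice (replicates 4, 2, 5, 4-B2 and 7) and the CB1R KO bleomycin group 4 Cnr1-/- mice, which lack cannabinoid receptor 1 (CB1R; replicates 8, 9, 10 and 11), and both were taken 14 days after a single oropharyngeal dose of bleomycin of 1 U per kg. The wildtype mice were male C57BL/6J of 13 weeks, and the KO mice, whose age is not given in the sources used here, carried the deletion in all tissues on the same background. No CB1R KO lung without bleomycin was analysed here, so in the comparison of CB1R KO bleomycin with Control the deletion and bleomycin cannot be told apart.

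Library totals were 14615904 to 16662580 estimated counts in 12 libraries, whereas the total of CB1R KO replicate 11 was 53463884. Cnr1 was counted in all groups, at 1.62 to 4.10 CPM (estimated counts scaled to the library total by the TMM method) in Control, 3.46 to 6.97 in WT bleomycin and 2.47 to 5.63 in CB1R KO bleomycin, and its log2 difference between CB1R KO and WT bleomycin was -0.53 (SE 0.28, edgeR adjusted p = 0.367). The position of these reads in the gene is not known, so they do not check the genotype. In these tissue libraries, a change in the number of cells of a type and a change in RNA per cell cannot be told apart.

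Krt8 and Krt18 are neighbours in the keratin cluster of chromosome 15, as are Krt15 and Krt19 in the cluster of chromosome 11. Promoters, here 250 bases before and 30 bases from each start, were read from a RefSeq table of build GRCm38.p6, which held 6 of the 10 genes (Krt5, Krt7, Krt8, Krt14, Krt18 and Sfn). The 4 promoters printed here are those of the members that rose with bleomycin in WT lungs and that the table holds. They were searched on both strands for 5 motifs, and matches stand in capitals: TGANTCA for the AP-1 site, GGGCGG for the GC box, TATAAA for the TATA box, GGAATG for the TEAD site, and the p53 half-site by name.
Krt8, chr15:102004313-102004592, minus strand: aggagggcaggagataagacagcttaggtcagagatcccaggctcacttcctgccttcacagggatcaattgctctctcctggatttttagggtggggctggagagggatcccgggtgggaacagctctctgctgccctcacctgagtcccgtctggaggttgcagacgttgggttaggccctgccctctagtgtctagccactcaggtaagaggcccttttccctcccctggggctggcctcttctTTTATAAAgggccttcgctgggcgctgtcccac
Krt18, chr15:102027966-102028245, plus strand: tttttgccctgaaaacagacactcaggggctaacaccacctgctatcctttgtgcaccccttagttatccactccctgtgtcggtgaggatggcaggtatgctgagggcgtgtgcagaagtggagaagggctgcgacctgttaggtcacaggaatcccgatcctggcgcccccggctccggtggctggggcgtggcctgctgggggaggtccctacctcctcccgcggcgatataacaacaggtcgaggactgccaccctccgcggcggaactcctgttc
Krt7, chr15:101412153-101412432, plus strand: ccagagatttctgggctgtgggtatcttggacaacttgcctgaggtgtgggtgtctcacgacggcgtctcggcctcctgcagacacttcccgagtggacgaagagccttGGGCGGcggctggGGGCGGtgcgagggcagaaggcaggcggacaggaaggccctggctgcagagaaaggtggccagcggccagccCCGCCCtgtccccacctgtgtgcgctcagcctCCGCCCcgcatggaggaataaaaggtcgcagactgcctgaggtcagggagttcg
Sfn, chr4:133602139-133602418, minus strand: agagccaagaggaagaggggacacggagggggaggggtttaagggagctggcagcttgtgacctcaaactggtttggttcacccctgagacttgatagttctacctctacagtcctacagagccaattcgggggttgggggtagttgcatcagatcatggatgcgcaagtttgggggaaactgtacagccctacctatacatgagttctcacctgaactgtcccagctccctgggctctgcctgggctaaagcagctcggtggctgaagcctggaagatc
The window of Krt8 held a TATA box read on both strands, in overlapping matches that span the annotated start, and 13.1% of 32817 promoters of this length held one. Krt7 held 4 GC boxes, a motif present in 34.7% of promoters. None of the 5 motifs was found in the windows of Krt18 and Sfn. An AP-1 site was in none of the 6 windows and in 7.47% of all promoters, a p53 half-site was in the window of Krt5 and in 7.84% of all, and a TEAD site was in the window of Krt14 and in 13.9% of all. The windows of Krt7, Krt18, Krt8 and Sfn held 65.7%, 61.4%, 58.6% and 55.0% G and C, against a median of 52.5% over all promoters.

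Levels between genes were compared in TPM, the deposited unit that is scaled for transcript length. In Control lungs, Krt7 averaged 172 ± 13.4 TPM (SD, n = 4), Krt19 166 ± 12.4, Krt8 143 ± 12.7 and Krt18 108 ± 4.46. Sfn followed at 18.7 ± 3.87, and the basal genes lay at or under 1.87 TPM on average, with Krt15 at 1.87 ± 2.20, Trp63 at 0.447 ± 0.246, Krt5 at 0.401 ± 0.433, Krt14 at 0.211 ± 0.244 and Krt17 at 0.144 ± 0.134. The ranges of Krt7 and Krt19 and those of Krt19 and Krt8 overlapped in Control, those of Krt8 and Krt18, of Krt18 and Sfn and of Sfn and Krt15 did not, and those of neighbouring basal genes overlapped.

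Together, the 4 simple keratins held 85.4% of the TPM of all 50 keratin genes in the table over the 13 libraries. Their share was 76.7% to 78.7% in Control, 85.2% to 90.8% in WT bleomycin and 85.8% to 88.9% in CB1R KO bleomycin libraries. The summed TPM of Krt5, Krt14, Krt15 and Krt17 was between 0.575 and 6.73 in Control, between 3.11 and 8.40 in WT bleomycin and between 2.48 and 7.24 in CB1R KO bleomycin, which was under 1% of keratin TPM in every library, the highest share being 0.877%. In WT bleomycin lungs the order among the simple keratins was Krt7, Krt8, Krt18 and Krt19, at 278, 267, 203 and 198 TPM, with overlap between each gene and the next, so that Krt19, next to Krt7 in Control, came last of the 4. In CB1R KO bleomycin lungs the order was Krt7, Krt8, Krt19 and Krt18, at 271, 233, 186 and 175 TPM, again with overlap between neighbours.

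The first comparison asked which of these genes differed 14 days after bleomycin in wildtype lungs. Krt7, Krt8, Krt18, Krt17 and Sfn rose, none fell, and Krt5, Krt14, Krt15, Krt19 and Trp63 did not pass the test. A gene is called here at an adjusted p under 0.05 in edgeR's quasi-likelihood test. These 5 of 10 members called higher stand beside 25% of all genes tested, and 0 of 10 called lower beside 23.9%. In each of the 5, every WT bleomycin library lay above every Control library, a pattern that 21.5% of all genes tested showed upwards and 18.8% downwards. In the plot of levels by library, the 5 rising genes are those whose WT bleomycin points clear the Control points.

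**Figure D1:**
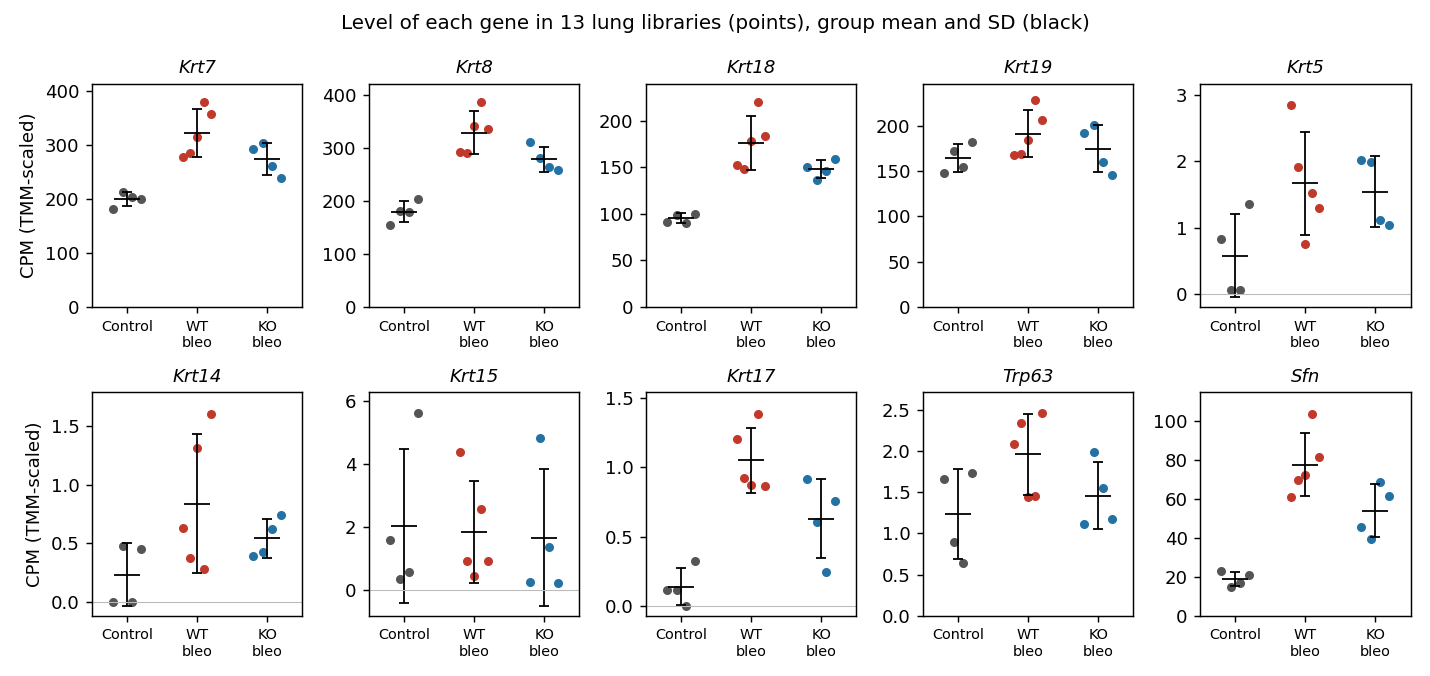
CPM of each of the 10 genes (vertical axis, scaled by the TMM method, a separate scale for each gene) in 4 Control, 5 WT bleomycin (WT bleo) and 4 CB1R KO bleomycin (KO bleo) libraries, each point 1 library and black bars the mean and SD. Krt7, Krt8, Krt18 and Sfn of both bleomycin groups lie above all Control points, whereas the Krt15 points of each group spread from under 1 to over 4 CPM.

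Krt8 measured 155, 181, 179 and 204 CPM in Control replicates 3, 21, 24 and 26. It measured 292, 290.3, 343, 387 and 337 CPM in WT bleomycin replicates 4, 2, 5, 4-B2 and 7. In CB1R KO bleomycin replicates 8, 9, 10 and 11 it measured 312, 282, 264 and 258 CPM. All 9 bleomycin libraries were above the highest Control library, and 3 of the 4 CB1R KO libraries were below the lowest WT one. The rise in WT lungs was 1.83-fold (log2 0.87, SE 0.10, edgeR quasi-likelihood test with Benjamini-Hochberg adjustment, adjusted p = 7e-06).

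Krt18, the partner of Krt8, gave 91.8, 99.2, 90.0 and 100.3 CPM in the Control libraries, in the same order. The WT bleomycin libraries gave 153, 148, 178, 219.8 and 183 CPM, and the CB1R KO libraries 151, 136, 146 and 159. Again no bleomycin library reached down to Control, and WT replicate 4-B2 stood highest. The rise was 1.85-fold (log2 0.89, SE 0.10, edgeR adjusted p = 7.3e-06), so the change of both partners was alike in size. The ratio of Krt8 to Krt18 TPM averaged 1.33 ± 0.111 in Control (SD, n = 4), 1.32 ± 0.0575 in WT bleomycin (n = 5) and 1.33 ± 0.148 in CB1R KO bleomycin (n = 4).

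Krt7 gave 182, 213, 205 and 199 CPM in Control. WT bleomycin libraries gave 278, 286, 314, 380.5 and 357 CPM, and CB1R KO libraries 293, 303, 261 and 239. The Control and bleomycin ranges were separate, and those of both bleomycin groups overlapped. The rise in WT lungs was 1.62-fold (log2 0.69, SE 0.10, edgeR adjusted p = 6.13e-05).

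Krt19, the fourth simple keratin, measured 148, 171, 154 and 182 CPM in Control and 167, 169, 184, 228 and 206 in WT bleomycin, with 192, 201, 159.9 and 146 in CB1R KO bleomycin. Its ranges overlapped in all comparisons, and its log2 difference in WT bleomycin was 0.22 (95% confidence interval -0.02 to 0.46, edgeR adjusted p = 0.12). The ratio of Krt8 to Krt19 TPM was 0.82 to 0.910 in Control, 1.28 to 1.46 in WT bleomycin and 1.10 to 1.40 in CB1R KO bleomycin, with no overlap between Control and either bleomycin group.

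Sfn was at 23.2, 14.9, 16.9 and 20.7 CPM in Control. It was at 60.9, 69.6, 72.4, 104 and 81.3 CPM in WT bleomycin and at 45.4, 39.7, 68.9 and 61.4 in CB1R KO bleomycin. Every bleomycin library exceeded every Control library, and CB1R KO replicates 8 and 9 were below all WT libraries. The rise was 4.09-fold (log2 2.03, SE 0.19, edgeR adjusted p = 1.61e-06), the widest among the members with more than 10 CPM. Relative to Krt8, Sfn TPM was 0.102 to 0.186 in Control, 0.260 to 0.334 in WT bleomycin and 0.175 to 0.325 in CB1R KO bleomycin, where the range overlapped that of Control.

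Krt17, a basal keratin that is also induced in injured epithelia, was rare in Control, at 2, 2, 0 and 5 estimated counts. The 0 in replicate 24 allows up to 3 counts, or 0.192 CPM, which covers counting error only. WT bleomycin libraries held 19, 15, 14, 20 and 14 counts (1.2, 0.927, 0.875, 1.38 and 0.864 CPM), and CB1R KO libraries 0.916, 0.603, 0.249 and 0.757 CPM. The WT libraries were close to each other and above all of Control, whereas CB1R KO replicate 10 lay within Control. The rise was 7.21-fold (log2 2.85, SE 0.53, edgeR adjusted p = 0.00047). Without Control replicate 26, the highest of its group, the log2 value was 3.58 (edgeR adjusted p = 0.000344). Without Control replicate 24 the log2 value was 2.46 (edgeR adjusted p = 0.00126). Leaving out Control replicate 3 or 21 gave 2.78 and 2.79 (edgeR adjusted p = 0.00206 and 0.00223).

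Krt5 measured 0.832, 0.0601, 0.0640 and 1.35 CPM in Control, where replicates 21 and 24 held 1 estimated count each. It measured 2.85, 1.91, 0.750, 1.52 and 1.3 CPM in WT bleomycin and 2.03, 1.99, 1.12 and 1.03 in CB1R KO bleomycin. The SD of Control (0.632 CPM) exceeded its mean (0.577 CPM), 3 of 5 WT libraries exceeded all of Control, and the groups overlapped. The log2 difference in WT bleomycin was 1.53 (95% confidence interval 0.20 to 2.85, edgeR adjusted p = 0.0537). The call turned on single libraries: the adjusted p was 0.0121 without Control replicate 26 and 0.038 without WT replicate 5, with log2 differences of 2.33 and 1.72 (edgeR). In the other direction, the edgeR adjusted p was 0.129, 0.13 and 0.127 without Control replicate 21, Control replicate 24 or WT replicate 4, with log2 differences of 1.14, 1.16 and 1.24.

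Krt14 was at 0, 0.481, 0 and 0.451 CPM in Control, the 2 libraries at 0 (replicates 3 and 24) allowing up to 0.178 and 0.192 CPM. It was at 0.633, 0.371, 1.31, 0.277 and 1.60 CPM in WT bleomycin and at 0.392, 0.422, 0.621 and 0.738 in CB1R KO bleomycin. WT replicates 5 and 7 were high, the other 3 were near the upper Control libraries, and the groups overlapped. The log2 difference in WT bleomycin was 1.83 (95% confidence interval 0.25 to 3.41, edgeR adjusted p = 0.0527). It passed the threshold without Control replicate 21, Control replicate 26, WT replicate 2 or WT replicate 4-B2, with edgeR adjusted p-values of 0.0354, 0.0436, 0.0407 and 0.0341 and log2 differences of 2.47, 2.33, 2.02 and 2.05. Without Control replicate 3, Control replicate 24, WT replicate 5 or WT replicate 7, the edgeR adjusted p was 0.12, 0.124, 0.109 and 0.133.

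Krt15 varied more within groups than between them. It was at 1.60, 0.361, 0.576 and 5.61 CPM in Control, at 4.37, 0.927, 0.437, 2.56 and 0.926 in WT bleomycin and at 0.262, 4.82, 1.37 and 0.221 in CB1R KO bleomycin. Each group had 1 library over 4 CPM and at least 1 under 0.5 CPM. The log2 difference between WT bleomycin and Control was -0.14, with a 95% confidence interval from -2.11 to 1.82 (edgeR adjusted p = 0.911), an interval too wide to detect a change of either sign at these counts.

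Trp63 was at 1.66, 0.901, 0.640 and 1.74 CPM in Control, at 2.09, 2.35, 1.44, 1.45 and 2.47 in WT bleomycin and at 1.11, 1.99, 1.55 and 1.18 in CB1R KO bleomycin. WT replicates 4, 2 and 7 were above all Control libraries, and the other 2 were within Control. The log2 difference was 0.66 (95% confidence interval -0.01 to 1.34, edgeR adjusted p = 0.0965).

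The second comparison asked whether the deletion of CB1R altered these genes after bleomycin. The fitted log2 difference was below 0 for all 10 members, which was the sign of 49.9% of all genes tested, although Krt5, Krt15 and Krt19 changed sign in 3 of 24, 4 of 24 and 1 of 25 alternative settings. None passed the test in either direction, beside 0.62% of all genes called lower and 0.359% called higher. At an unadjusted p under 0.05, 4 of 10 members (Krt7, Krt8, Krt18 and Sfn) were lower, beside 9.08% of all genes. No member had separate ranges, beside 3.1% of all genes separated downwards and 2.5% upwards. Calls over all genes in this comparison rested on single libraries: 150 genes were called (edgeR), and 1, 3 and 9 without CB1R KO replicates 9, 11 and 8, so at most 1 of the companion genes called in it kept its call without replicate 9.

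Sfn had the lowest p among them, with a mean of 53.9 ± 13.6 CPM in CB1R KO bleomycin (SD, n = 4) and 77.6 ± 16.3 in WT bleomycin (n = 5). Its log2 difference was -0.52 (95% confidence interval -0.91 to -0.14, edgeR adjusted p = 0.158). For Krt8, the log2 difference was -0.24 (-0.45 to -0.03, edgeR adjusted p = 0.221), for Krt18 -0.25 (-0.46 to -0.04, edgeR adjusted p = 0.213) and for Krt7 -0.24 (-0.45 to -0.03, edgeR adjusted p = 0.236). These intervals end short of a fall of 0.5 on the log2 scale for the 3 keratins but not for Sfn. The intervals of the basal genes were wide, from -1.54 to 0.15 for Krt17, from -1.10 to 0.21 for Trp63, from -1.30 to 1.01 for Krt5, from -1.87 to 0.75 for Krt14 and from -2.21 to 1.77 for Krt15. In the plot of log2 fold changes, no point of this comparison is filled.

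**Figure D2:**
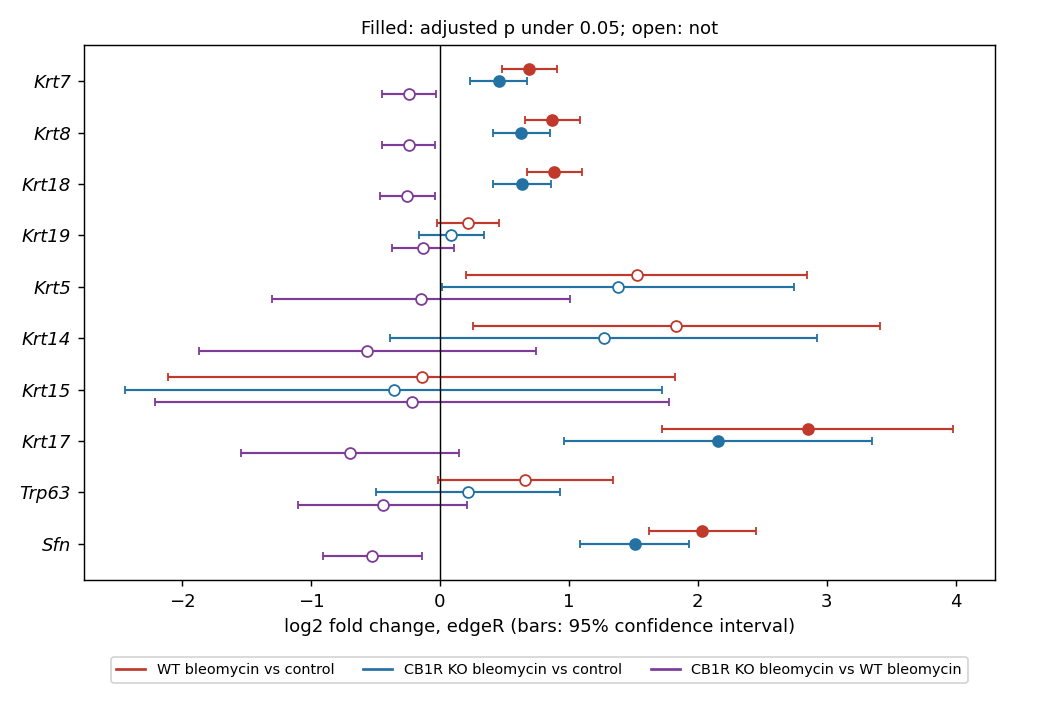
Log2 fold changes of the 10 genes (horizontal axis) in the 3 comparisons, with bars for 95% confidence intervals and filled points for an adjusted p under 0.05 in edgeR's quasi-likelihood test. Krt7, Krt8, Krt18, Krt17 and Sfn are filled in both comparisons with Control, and no gene is filled between CB1R KO and WT bleomycin, where all 10 points lie left of 0.

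CB1R KO bleomycin lungs were also set against Control, which shares the Control libraries with the first comparison and the CB1R KO libraries with the second. Krt7, Krt8, Krt18, Krt17 and Sfn were called higher here too, 5 of 10 members beside 19% of all genes, and 0 members were called lower, beside 16.3%. The log2 differences, with those of WT bleomycin after them, were 0.45 and 0.69 for Krt7, 0.63 and 0.87 for Krt8, 0.63 and 0.89 for Krt18, 2.16 and 2.85 for Krt17 and 1.51 and 2.03 for Sfn. The edgeR adjusted p-values in CB1R KO lungs were 0.00401, 0.000331, 0.00037, 0.00821 and 6.16e-05. For 4 of these 5, all but Krt17, every CB1R KO library exceeded every Control library, as was so for 17.7% of all genes upwards and 15.8% downwards. Krt5, at 1.38 (edgeR adjusted p = 0.106), was called without Control replicate 26 (log2 2.19, edgeR adjusted p = 0.0275), and Krt14, Krt15, Krt19 and Trp63 were not called in any fit that left out a library.

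The level of Krt7 in CB1R KO replicate 11 stood differently in the 2 deposited units. In CB1R KO replicate 11 it had 1.35 TPM per CPM of raw estimated counts, against 0.796 to 0.910 in the other 12 libraries, and at 326 TPM it was the highest of its group, although it was the lowest in CPM. That ratio, taken relative to the other libraries, was above that of 99.7% of 11964 genes in the same library. The log2 difference of Krt7 between CB1R KO and WT bleomycin was -0.04 on the scale of log2 of TPM plus 1 (limma, adjusted p = 0.845). On counts it was -0.24 (edgeR adjusted p = 0.236), so Krt7 was called in neither unit. Krt7 has 2 protein-coding transcripts in GENCODE vM21 (GRCm38), of 642 and 4094 bases, and the part of their use in this ratio was not tested.

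**Figure D3:**
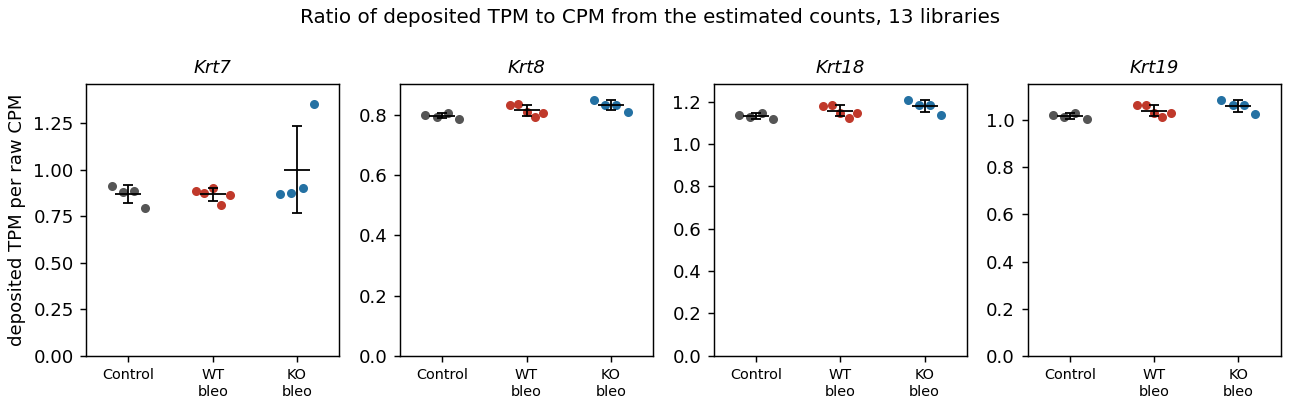
Deposited TPM divided by CPM of the raw estimated counts (vertical axes) for the 4 simple keratins in the 13 libraries, with group means and SD in black. The Krt7 point of CB1R KO replicate 11, at 1.35, stands apart from the other 12 Krt7 points, at 0.796 to 0.910, and no such point is seen for Krt8, Krt18 and Krt19.

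Reads of keratins can fit more than 1 gene, which bears on how firmly the low basal counts can be read. Of all 31-base words in the vM21 protein-coding transcripts of each gene, 29.2% of those of Krt14 occur in other genes of the deposited tables (most often Krt16), 15.8% of Krt17 (most often Krt14) and 11.6% of Krt5 (most often Krt6a), but 3.89% of Krt15, 2.93% of Krt7, 0.517% of Krt19 and none of Trp63. The shared words of Krt7 occur in 3433 other genes of the annotation, the most of any member, against 196 for Sfn. For Krt8, 36.0% of words occur in other genes of the annotation, mainly in its pseudogene Krt8-ps, yet 0.934% in genes of the tables. For Sfn these shares were 26.8% and 0.253%, and for Krt18 11.4% and 0. Estimated counts were not whole numbers, meaning that reads had been divided among genes or transcripts, in all 13 libraries for Krt7 and Krt19, in 12 for Krt8, in 7 for Krt14 and Krt15, in 6 for Sfn, in 3 for Krt5, in 1 for Krt17 and in none for Krt18 and Trp63.

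Of the 50 keratin genes, 15 passed the filter on low counts, 8 being members. Among the other 7, Krt4, a keratin of non-cornified squamous epithelium, rose with bleomycin in WT lungs from 0.127 ± 0.118 CPM (SD, n = 4) to 1.16 ± 0.197 (n = 5), a log2 difference of 3.15 (SE 0.52, edgeR adjusted p = 0.000183). Krt79 fell from 15.0 ± 2.80 to 2.82 ± 0.476 CPM (log2 -2.41, SE 0.22, edgeR adjusted p = 1.21e-06). Krt80, the most abundant keratin outside the members with 11.2% of keratin TPM, fell by 0.35 on the log2 scale (edgeR adjusted p = 0.0141), and Krt10, Krt23 and Krt222 fell by 0.51, 0.83 and 1.10 (edgeR adjusted p = 0.0216, 0.00398 and 0.0304). Krt87 was at 0.73 (edgeR adjusted p = 0.13).

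Of these 7, none was called between CB1R KO and WT bleomycin. Krt79 was higher in all 4 CB1R KO libraries than in any WT bleomycin library, at 3.36 to 6.63 against 2.03 to 3.18 CPM (log2 0.86, edgeR adjusted p = 0.0805). Krt10 was also higher in all 4, at 2.98 to 3.98 against 1.91 to 2.91 CPM (log2 0.51, edgeR adjusted p = 0.145). Krt4 was lower in all 4, at 0.302 to 0.923 against 0.937 to 1.42 CPM (log2 -0.77, edgeR adjusted p = 0.314). Of all genes tested, 2.5% had ranges separated upwards and 3.1% downwards in this comparison.

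**Figure D4:**
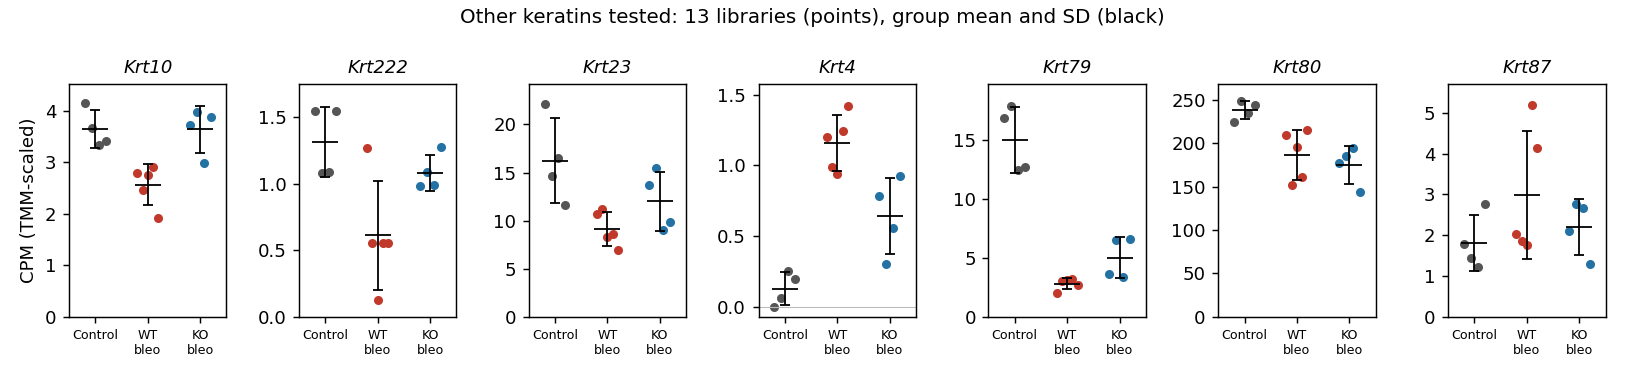
CPM (vertical axis, a separate scale for each gene) of the 7 keratins outside the members that passed the filter, in 4 Control, 5 WT bleomycin and 4 CB1R KO bleomycin libraries, with mean and SD in black. Krt4 is higher and Krt79 lower in both bleomycin groups than in Control, with no overlap.

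Companion genes of each role were read from lists of names, chosen with earlier results of these data known. Of 20 genes of the transitional alveolar state, 19 were tested. In WT bleomycin lungs 18 were called higher and 1, Tm4sf1, lower, beside 25% and 23.9% of all genes. The median log2 difference was 1.27 against -0.01 over all genes. The cells in which these genes rose cannot be told from tissue RNA. Ndnf, a secreted factor, rose from 198 to 583 CPM (log2 1.56), Cldn4, a tight junction claudin that marks the state, from 7.31 to 69.5 CPM (log2 3.25), and Phlda3, a target of p53, from 49.8 to 123 CPM (log2 1.3), each with an edgeR adjusted p of 6.9e-08. Between CB1R KO and WT bleomycin, 2 of the 19 were called, both lower, beside 0.62% of all genes called lower. These were Cldn4 (log2 -0.90, edgeR adjusted p = 0.0314) and Fosl1, a subunit of AP-1 (log2 -2.28, edgeR adjusted p = 0.0186, with means of 0.285 and 1.25 CPM). The median of the list was -0.17 there, against 0.00 over all genes, and Krt8, Krt18 and Sfn lay at -0.24, -0.25 and -0.52.

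Of 16 partners of basal cells, only 10 were tested, of which 3 were called higher and 2 lower in WT bleomycin lungs (median 0.18). These counts are near the shares over all genes, 25% called higher and 23.9% lower. Those called higher included the laminin chain Lamb3 (log2 0.67, edgeR adjusted p = 1.13e-05) and the integrin Itgb4 (log2 0.69, edgeR adjusted p = 2.73e-05), which other epithelial cells of the lung also express. The 2 called lower were Col17a1 (log2 -2.05, edgeR adjusted p = 0.000104) and Snai2 (log2 -0.54, edgeR adjusted p = 0.00974). Ngfr, a surface marker of basal cells, had 1.61 CPM in Control and 2.38 in WT bleomycin (log2 0.57, edgeR adjusted p = 0.0619), and Dsg3 was too low to be tested. None of the 10 was called between CB1R KO and WT bleomycin, where the lowest p was that of Itgb4 (log2 -0.34, edgeR adjusted p = 0.0761).

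Of the 12 desmosomal and linker genes in the tables that anchor keratin filaments, 11 were tested, with 2 called higher and 4 lower in WT bleomycin lungs (median -0.17). Over all genes, 25% were called higher and 23.9% lower in this comparison. The linker Plec rose (log2 0.56, edgeR adjusted p = 2.06e-05), and the desmosomal Ppl and Jup fell (log2 -1.10 and -0.51, edgeR adjusted p = 0.000111 and 0.000122), while Krt8 and Krt18 rose. Of the 6 other 14-3-3 genes, 4 were called higher, led by Ywhag, Ywhah and Ywhaz (log2 0.44, 0.41 and 0.15, edgeR adjusted p = 1.2e-05, 3.99e-05 and 0.0272), with a median of 0.18 beside 2.03 for Sfn. Of the other p53 family genes, Trp53 rose (log2 0.31, edgeR adjusted p = 0.00454) and Trp73 fell (log2 -0.50, edgeR adjusted p = 0.0261).

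Markers of other epithelial and surface cells were counted beside the members because keratins are shared among these cells. Their counts of calls stand beside 25% of all genes called higher and 23.9% called lower in WT bleomycin lungs. Between CB1R KO and WT bleomycin these shares were 0.359% and 0.62%. The summed CPM of 12 genes of all epithelia was 1011 to 1057 in Control, 1056 to 1318 in WT bleomycin and 1048 to 1177 in CB1R KO bleomycin, with 7 called higher and 1 lower in WT lungs (median 0.23), among them Ehf and Spint1 (log2 -0.41 and 0.57, edgeR adjusted p = 0.00039 and 0.00156), and Elf3 had the lowest p between CB1R KO and WT bleomycin (log2 -0.23, edgeR adjusted p = 0.414). Of 10 type II cell markers, 6 were called lower and 1 higher in WT bleomycin lungs, and 3 were called higher in CB1R KO than in WT bleomycin, among them Sftpc (log2 -0.83 and 0.66, edgeR adjusted p = 9.05e-05 and 0.0289) and Sftpa1 (log2 -1.16 and 0.84, edgeR adjusted p = 7.16e-05 and 0.0371). Slc34a2, a phosphate transporter of these cells, fell in WT bleomycin (log2 -0.72, edgeR adjusted p = 9.65e-05). The summed CPM of the type II list was 20653 to 24060 in Control, 13479 to 15483 in WT bleomycin and 15922 to 24323 in CB1R KO bleomycin. Of 12 type I cell markers, 6, led by Rtkn2 (log2 -0.97, edgeR adjusted p = 8.81e-06), were called lower and 2, Igfbp2 and Pdpn (log2 1.04 and 0.63, edgeR adjusted p = 2.42e-06 and 9.59e-06), higher in WT bleomycin lungs, and none was called between CB1R KO and WT bleomycin.

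The counts that follow also stand beside 25% of all genes called higher and 23.9% called lower in WT bleomycin lungs. Of 9 secretory markers, 4 were called lower and 2 higher in WT bleomycin lungs, Cyp2f2 and Scgb1a1 falling (log2 -1.39 and -0.84, edgeR adjusted p = 8.85e-08 and 0.000121) and the mucin Muc5ac rising (log2 3.04, edgeR adjusted p = 0.000166). Muc5ac was lower in CB1R KO than in WT bleomycin (log2 -2.77, edgeR adjusted p = 0.0219). Of 10 ciliated markers, beside 23.9% of all genes called lower, 2, Tppp3 and Tekt1 (log2 -1.21 and -0.35, edgeR adjusted p = 9e-06 and 0.0119), were lower and none higher in WT bleomycin lungs, and Fam183b did not pass (log2 -0.41, edgeR adjusted p = 0.078). Of 10 mesothelial markers, which share Krt8, Krt18 and Krt19, 6 were lower, led by Gpm6a, Rspo1 and Upk1b (log2 -0.78, -0.89 and -0.51, edgeR adjusted p = 1.92e-06, 0.000187 and 0.000196), and 1, Msln, higher (log2 0.78, edgeR adjusted p = 0.00193), and Msln is also in the transitional list. Of 14 genes of stratified squamous surfaces, 5 were tested, of which 3 (Krt4, Ivl and Trim29) were called higher and 2 (Krt10 and Sbsn) lower, and their summed CPM was 19.98 to 25.3 in Control and 21.8 to 29.4 in WT bleomycin. Of 6 neuroendocrine genes, 3 were tested, with Insm1 called higher and Calca not called, and of 5 thymic epithelial genes 2 (Ccl25 and Psmb11, not called), with summed CPM of at most 6.73 and 3.56 in any library. Of 5 genes of smooth muscle and myoepithelial cells, 2, Tagln and Acta2, were higher and 1, Myh11, lower in WT bleomycin, and Tagln was lower in CB1R KO than in WT bleomycin (log2 -0.63, edgeR adjusted p = 0.0177). The part of the number of cells of any of these types in the keratin values was not tested.

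**Figure D5:**
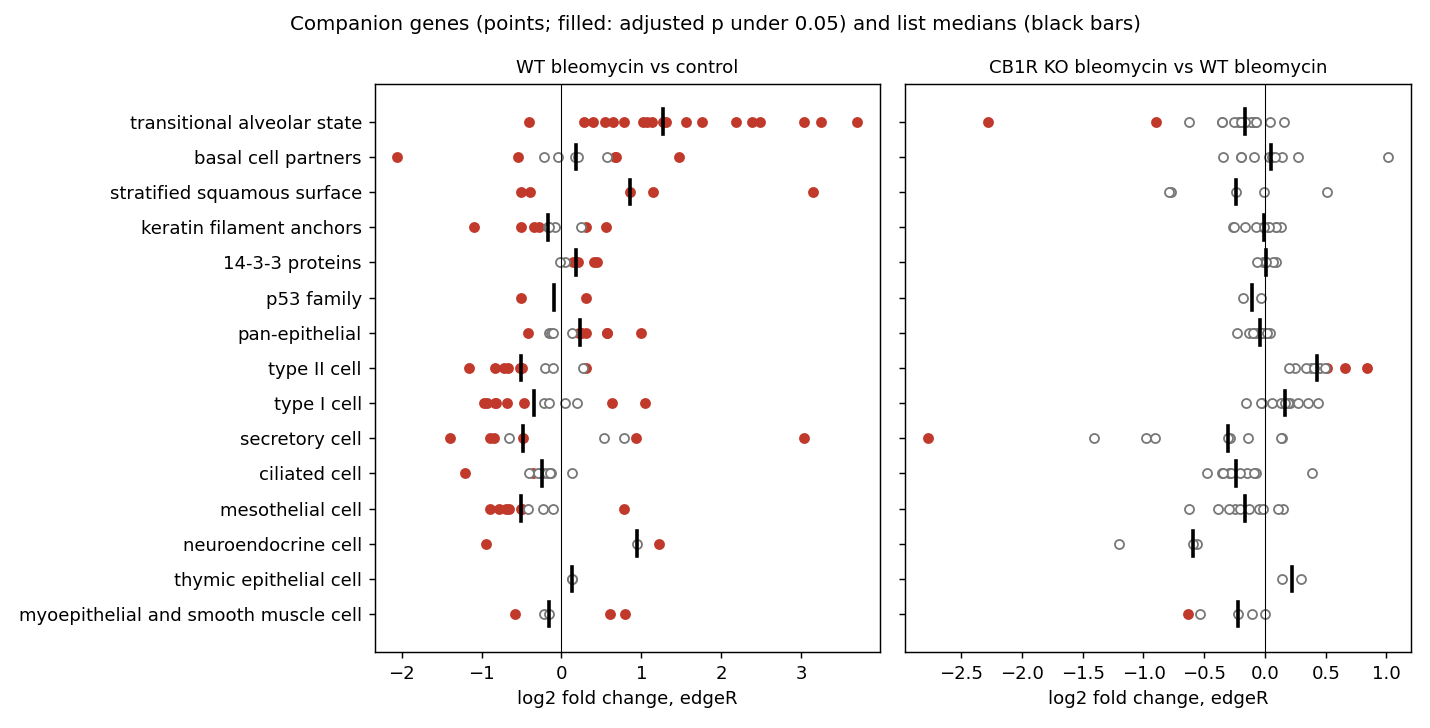
Log2 fold change (horizontal axes) of each tested gene of the 15 companion lists between WT bleomycin and Control (left) and between CB1R KO and WT bleomycin (right), each point 1 gene, filled where the adjusted p of edgeR's quasi-likelihood test is under 0.05, with black bars for list medians. The transitional list has the highest of the 15 medians on the left side, 1.27, and 2 of its genes are filled on the right side. The lists were chosen with earlier results of these data known, so this rank is not independent of the data.

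Across the 13 libraries, Krt8 and Krt18 had a Pearson correlation of log2 CPM of 0.96, Krt8 and Krt7 0.96, and Krt8 and Sfn 0.90, and over the 9 bleomycin libraries alone these were 0.85, 0.92 and 0.58. Krt19 followed Krt7 more closely within the bleomycin libraries (0.95) than over all 13 (0.77). Among the basal genes, Krt5 had values of 0.78 with Trp63 and 0.47 with Krt15 over 13 libraries and of 0.36 and 0.56 over 9, and Krt5 and Krt14, which form a filament pair, had 0.37 over 13 and -0.57 over 9. These values describe libraries that share groups and, for the basal genes, rest on few counts.

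The 3 genes outside the members with the pattern most like that of Krt8 were Pdpn, a type I cell glycoprotein, Sdc1, an epithelial heparan sulfate proteoglycan, and Anxa1, with a Pearson correlation of 0.98 each over 13 libraries and of 0.87, 0.87 and 0.88 over the 9 bleomycin libraries. The 3 most like Krt5 were Csnk2a2, Pik3r5 and Hacd2, at 0.93, 0.89 and 0.89 over 13 libraries and 0.71, 0.84 and 0.54 over 9, and none of them is a keratin or in one of the lists.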

How the data were processed

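The authors quantified paired-end reads with Kallisto on the Ensembl mouse reference (the release named in the study's methods, GRCm39 in the submitters' processing notes), kept protein-coding transcripts and deposited estimated counts and, in a separate table, TPM, both added up by gene symbol. Of the deposited count values, 64.8% were more than 0.001 away from a whole number, and 301 of 20270 genes had 0 counts in every library. The 13 single-sample tables repeat the series tables exactly and were not used, and 1 TPM column that matches no sample was not used either.

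Groups follow the treatment label of each sample. Depth was 14615904 to 16662580 estimated counts in 12 libraries and 53463884 in CB1R KO replicate 11, and fold changes had a median standard error (log2) of 0.11 to 0.12. Estimated counts were rounded, filtered with filterByExpr, scaled by TMM and tested with edgeR 4.0.16 (quasi-likelihood, 13 libraries, 1 coefficient per group, no covariates, Benjamini-Hochberg adjustment over 15315 genes, threshold 0.05), in R 4.3.3. P-values set a difference between groups against the spread between these libraries within groups. Correlations used log2 CPM (prior count 2). The procedure was tested on simulated data. Python 3.11.15, matplotlib 3.10.9, pandas 2.3.3 and numpy 2.4.6 made the tables and plots.

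The members and lists were chosen with earlier results of these data known. Named from each list were the 3 genes with the lowest p in WT bleomycin against Control, the 1 with the lowest p between CB1R KO and WT bleomycin, further keratins that passed the filter, and the first 2 markers of a cell type where needed, and for likeness the 3 genes with the highest correlation with Krt8 and with Krt5. The genes Tm4sf1, Ivl, Sbsn, Col17a1 and Snai2 were named after their values were seen. A few genes that this rule names are not reported here. Alternatives were upper-quartile or RLE scaling, dropping the count filter, a stricter filter (10 counts or more in each library), DESeq2 1.42.0 on 13 libraries or 2 groups, limma 3.58.1 on log2 TPM plus 1 or 0.1, edgeR on 2 groups, the style of the sample titles as a term or lower-case titles only, each library left out, and CB1R KO replicate 11 thinned. Titles with capitals were those of Control replicate 26 and WT bleomycin replicates 4-B2 and 7. No CB1R KO library had such a title, so the style of the titles was partly confounded with the comparison of CB1R KO with WT bleomycin. Promoters came from RefSeq (GRCm38.p6), another build than the authors' reference, and the transcripts searched for shared words from GENCODE vM21.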

Additional observations from a re-analysis of the deposited data

Results flagged for a closer look

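A library far from the others was sought in the 58 groups of 4 or 5 libraries that could be examined. These spanned 10 members, 3 groups and both of CPM and TPM per raw CPM. In 1 of the 58 such a library was found, no more than the rate of about 1 in 20 that chance gives. Krt7 in CB1R KO bleomycin replicate 11 had 1.35 TPM per CPM of raw estimated counts, against 0.869 to 0.903 in the other CB1R KO libraries, a gap of 0.928 of the group's range, more than Dixon's 95% critical value. This library was also the deepest, with 53463884 estimated counts. Its Krt7 level in CPM, 239, was the lowest of the group, and its level in TPM, 326, the highest. The part of depth and of transcript use in this ratio was not tested.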

How the results depend on the processing

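Between CB1R KO and WT bleomycin, 0 of 10 members were called in each of 25 alternatives. They ranged from 4 to 7 (5 as reported) for WT bleomycin against Control and from 4 to 6 (5 as reported) for CB1R KO bleomycin against Control. Krt7, Krt8, Krt18 and Sfn were called in both of these comparisons in all 25. Krt17 was called in each alternative that tested it, and not tested with at least 10 counts in every library or, for CB1R KO bleomycin against Control, with edgeR on 2 groups. Krt5 and Krt14 passed in WT bleomycin under DESeq2 on 13 libraries (adjusted p = 0.0346 and 0.0405) and under limma on TPM, and Krt5 also with lower-case titles only (log2 2.49, edgeR adjusted p = 0.0239). Krt15 changed sign in 8 of 24 alternatives in that comparison. The adjusted p of Sfn between CB1R KO and WT bleomycin was 0.0627 at its lowest and 0.586 at its highest, with lower-case titles only (edgeR). Its log2 difference ranged from -0.66 to -0.33 over the alternatives. Those of Krt7, Krt8 and Krt18 ranged from -0.29 to -0.04, from -0.30 to -0.14 and from -0.31 to -0.11. Krt8 and Krt18 also had their highest adjusted p with lower-case titles only (edgeR, 0.633 and 0.68). Genes called among all 15315 in that comparison numbered 150 as reported, 640 with DESeq2 on 13 libraries, 644 with DESeq2 on 2 groups, 93 with limma on TPM plus 0.1, 88 with edgeR on 2 groups, 41 with the style of the titles as a term, 6 with lower-case titles only, and 1 (without CB1R KO replicate 9) to 653 (without CB1R KO replicate 10) when 1 library was left out, with 9 and 3 without CB1R KO replicates 8 and 11. The cause of these shifts was not tested. Of the medians of companion lists under alternatives, 941 moved by less than the spread between replicates and 31 by more. Depth limits Krt5, Krt14, Krt15, Krt17 and Trp63, which had under 100 counts in each library. No paired analysis was possible because the groups share no replicate numbers in the labels.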
